A study of Homo sapiens with 16 samples.

Results

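The genes described here encode proteins of DNA mismatch repair and of the repair of DNA double-strand breaks. They were chosen by name: every gene in a list of 36 repair genes was looked up in the table of transcript levels, and all 36 were found among its 58884 genes. The rule used no measured value, but the list was drawn up with earlier results of these data known. They fall into 5 groups by role, with 6 genes of mismatch repair, 14 of homologous recombination, 7 of break sensing and repair choice, 7 of end joining and 2 of the Fanconi ID complex.

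The transcript levels come from RNA-seq of 293T cells, a human embryonic kidney line. The labels give the cells of all these libraries as wild type (WT), with no change of genotype named. Cells received scramble, SETD2 or hnRNP L siRNA for 72 h, and 2 libraries were made for each siRNA. The scramble and hnRNP L siRNA libraries carry the replicate numbers 1 and 2, and the SETD2 siRNA libraries carry 2 and 3. The study's methods describe the replicates as biological and independent. The labels do not say how separately the cells were grown, and the p-values measure the spread between these libraries. The study asked whether SETD2, which trimethylates lysine 36 of histone H3 (H3K36me3) along transcribed genes, and the RNA-binding splicing regulator hnRNP L act on a common set of genes. The comparisons are each depletion against scramble siRNA, and hnRNP L against SETD2 siRNA.

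Mismatch repair removes bases that DNA polymerase has paired wrongly and small loops left by slippage. MutS heterodimers find the mismatch, MutL heterodimers license a cut, and the exonuclease EXO1 removes the strand that holds the error. A double-strand break is held and signalled by the MRE11-RAD50-NBN complex and the kinase ATM. It is then either joined directly by the Ku and DNA-PK machinery or cut back for copying from the sister chromatid by homologous recombination, in which BRCA1, BRCA2 and their partners act. FANCD2 and FANCI form a clamp that is ubiquitinated when DNA strands are cross-linked. H3K36me3 has known ties to both kinds of repair: MSH6 carries a PWWP domain that reads the mark, and the mark has been linked to recombination in transcribed genes. hnRNP L binds RNA with CA repeats.

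The deposited values are TPM (a transcript's share of the library's transcripts), which are scaled by transcript length within a library and sum to 1000000 in each. Counts of reads cannot be read back from them, and values are given without a counting error. The read totals of each library, which accompany the study's methods, were not used here. Between 24225 and 24987 genes were above 0 in a library. The share of all TPM taken by the 37 mitochondrially encoded genes was 17.5% in scramble replicate 1 and between 6.70% and 10.9% in the other 5 libraries. The genes that mark 293T cells were present (VIM, KRT8, KRT18 and the neurofilament genes NEFL, NEFM and INA). Of 10 markers of blood, endothelium, fibroblasts and liver, the highest value in any library was 5.17 TPM. NEFL and NEFM were themselves called higher after hnRNP L depletion. In these bulk libraries, fewer cells expressing a gene and less RNA per cell cannot be told apart.

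Both siRNAs lowered their targets. SETD2 had 13.4 and 11.7 TPM in scramble libraries and 4.24 and 4.91 TPM with SETD2 siRNA, 36.5% of the scramble mean (limma adjusted p = 0.00603). HNRNPL had 341 and 457 TPM in scramble libraries and 25.0 and 28.8 TPM with hnRNP L siRNA, which left 6.75% (limma adjusted p = 8.48e-06). In both genes the depleted libraries lay below both scramble libraries. With scramble replicate 1 left out the SETD2 call was lost (adjusted p = 0.162), as it was without SETD2 siRNA replicate 2 (adjusted p = 0.082). SETD2 itself had 10.8 and 10.2 TPM with hnRNP L siRNA, and HNRNPL had 395 and 413 TPM with SETD2 siRNA.

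Tests were run with limma on log2(TPM + 0.5) over the 16300 genes whose mean was 0.5 TPM or more, all 6 libraries in 1 fit. On this scale the changes of weakly expressed genes come out too small. Fold changes are given with their standard error (SE) or 95% interval. Adjusted p are two-sided and Benjamini-Hochberg adjusted over the 16300 genes. A call required an adjusted p under 0.05 together with more than a 1.5-fold change. All 36 repair genes passed the filter, the lowest being MLH3 with a mean of 0.99 TPM. Permuting 2 libraries against 2 exactly for 1 gene gives a two-sided p no smaller than 0.333.

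Taken as mean TPM over the 6 libraries, the 36 genes ranged from 0.99 to 674.3 TPM, with a median of 13.8 TPM. There were 5 genes above 100 TPM, 22 from 10 to 100 TPM and 9 under 10 TPM. XRCC6, the Ku70 subunit that holds broken ends for joining, was the highest in every library, from 612 to 717 TPM. Its partner Ku80, encoded by XRCC5, ranged from 181 to 209 TPM, and the DNA-PK catalytic subunit gene PRKDC from 110 to 125 TPM. MSH6 and FANCI were the other genes with a mean above 100 TPM. At the low end, LIG4, the ligase that seals joined ends, had 2.12 to 2.70 TPM, and MLH3, a MutL protein of mismatch repair and meiotic crossing over, had 0.60 to 1.45 TPM. The SD between the 2 replicates of a group, pooled over the groups, had a median over the 36 genes of 0.111 on the log2 scale, with a lowest value of 0.0395 and a highest of 0.27 in DCLRE1C.

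**Figure D1:**
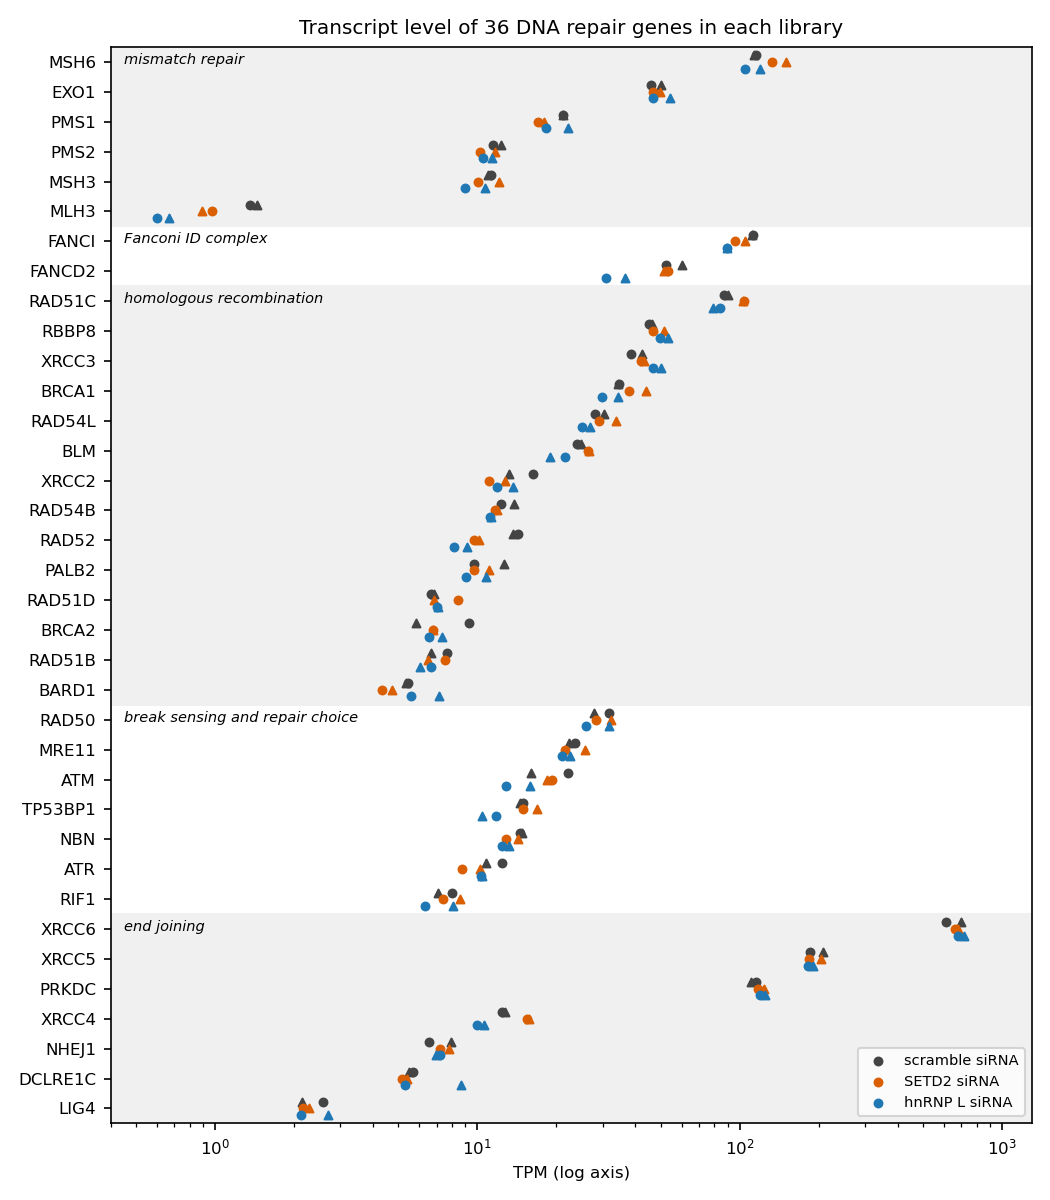
TPM of the 36 repair genes (log axis) in the 6 libraries, by role and ordered by level within each role. Colours give the siRNA, circles the lower-numbered and triangles the higher-numbered library of each group. XRCC6 lies furthest right at 612 to 717 TPM and MLH3 furthest left at 0.60 to 1.45 TPM, and the hnRNP L siRNA points of FANCD2, RAD52 and MLH3 lie left of their scramble points.

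Transcript ratios were taken between paired repair genes, some of them partners in a complex and others alternative or related proteins. They overlapped between the siRNAs for some pairs and differed with the siRNA for others. The TPM ratio of RAD50 to MRE11 stayed between 1.24 and 1.41 in the 6 libraries, with all groups overlapping. That of XRCC6 to XRCC5 was between 3.30 and 3.59 with scramble or SETD2 siRNA and 3.76 in both hnRNP L siRNA libraries. MSH6 and MSH3 encode alternative MutS subunits that share a common partner, the first for single mismatches and short loops and the second for larger loops. Their ratio was 10.2 and 10.4 with scramble siRNA, 13.1 and 12.4 with SETD2 siRNA, and 11.6 and 11.2 with hnRNP L siRNA. BRCA1 and BARD1, which form a ubiquitin ligase together, had a ratio of 6.37 and 6.46 with scramble siRNA, 8.72 and 9.33 with SETD2 siRNA, and 5.36 and 4.81 with hnRNP L siRNA. These ratios of MSH6 to MSH3 and of BRCA1 to BARD1 were higher in both SETD2 siRNA libraries than in the other 4. So were those of XRCC4 to LIG4, RAD51C to RAD51B, RAD54L to RAD54B and PMS2 to PMS1, while the remaining ratios computed were not. That of XRCC3 to RAD51C was lower in both SETD2 siRNA libraries than in the other 4. Against the scramble libraries alone, the SETD2 siRNA libraries were higher for RAD50 to NBN and lower for TP53BP1 to BRCA1. No share over pairs of other genes was computed. The ratios are given as values and were not tested.

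**Figure D2:**
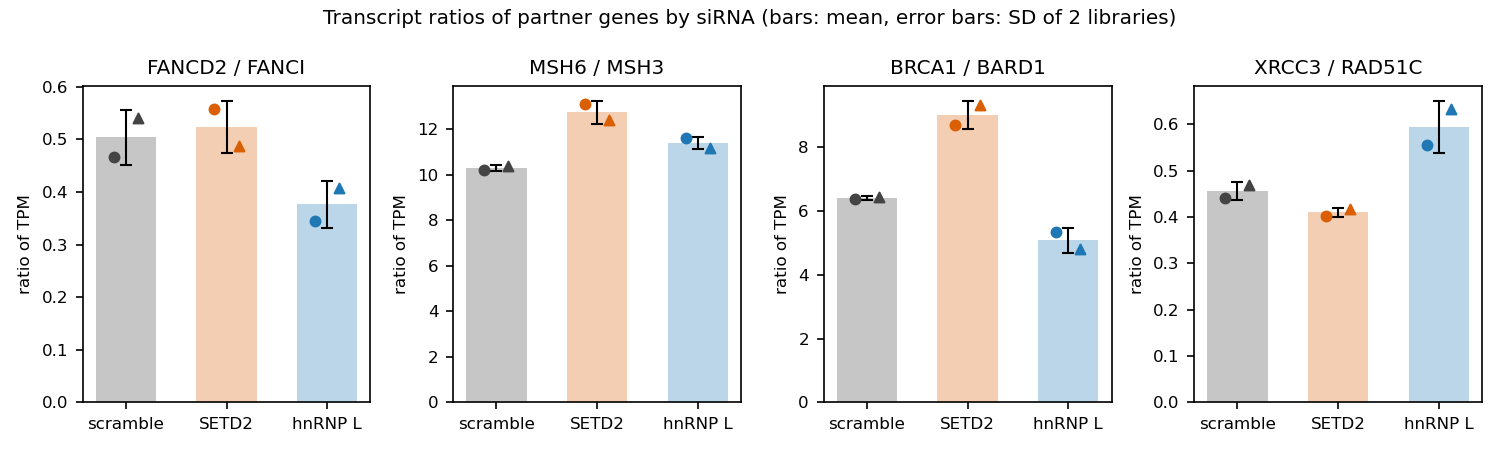
Ratio of TPM between paired repair genes by siRNA, from an axis that starts at 0. Bars are the mean of 2 libraries, error bars the SD, circles the lower-numbered and triangles the higher-numbered library. The ratio of FANCD2 to FANCI is lowest with hnRNP L siRNA (0.345 and 0.408), and that of BRCA1 to BARD1 highest with SETD2 siRNA (8.72 and 9.33).

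SETD2 depletion changed none of the 36 genes at the call threshold. Of all 16300 genes tested, 17 were called (0.104% in either direction), so few calls were available in any list. At an unadjusted p under 0.05 from limma, 3 of the 36 were higher (MSH6, RAD51C and XRCC4) and 2 were lower (PMS1 and RAD52), where 6.76% of all genes were higher and 6.36% lower. Both SETD2 siRNA libraries lay above both scramble libraries in 8 of the 36 genes and below both in 10, against 22.9% and 20.6% of all genes. These counts are near the shares of all genes. The median log2 fold change was -0.01 over the 36 genes and 0.01 over all genes tested. The whole 95% interval of the log2 fold change lay inside a 1.5-fold change in either direction for 33 of the 36 genes. Each of the 3 others, RAD52, MLH3 and XRCC2, had a negative estimate. The share of all genes with such an interval was not computed.

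MSH6, whose product reads H3K36me3, had 115 and 114 TPM in scramble libraries, 132 and 150 TPM with SETD2 siRNA, and 104 and 120 TPM with hnRNP L siRNA. Both SETD2 siRNA libraries lay above the other 4. The log2 fold change after SETD2 depletion was 0.30 (95% interval 0.05 to 0.54, adjusted p = 0.309 from limma), which did not pass the threshold. MSH3 had 11.3 and 10.96 TPM in scramble libraries and 10.1 and 12.1 TPM with SETD2 siRNA, and the groups overlapped. Of the other mismatch repair genes, PMS1, a MutL protein, had 21.3 TPM in both scramble libraries, 17.0 and 17.9 TPM with SETD2 siRNA, and 18.3 and 22.1 TPM with hnRNP L siRNA. Its log2 fold change of -0.28 after SETD2 depletion had an adjusted p of 0.37 from limma. EXO1, the exonuclease of the pathway, ranged from 46.0 to 54.3 TPM over the 6 libraries with all groups overlapping.

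RAD52, which anneals single strands and can load the recombinase, had the smallest p of the 36 after SETD2 depletion. It had 14.3 and 13.6 TPM in scramble libraries and 9.74 and 10.1 TPM with SETD2 siRNA, with no overlap. On the log2 scale this was a change of -0.47 (SE 0.117) with a limma unadjusted p of 0.00316 and an adjusted p of 0.196. RAD51C, a recombinase paralog, had 86.8 and 90.0 TPM in scramble libraries and 104 and 103 TPM with SETD2 siRNA, a log2 fold change of 0.23 (limma adjusted p = 0.343). XRCC4, the scaffold of ligase IV in end joining, had 12.4 and 12.8 TPM in scramble libraries and 15.4 and 15.8 TPM with SETD2 siRNA. The change of 0.30 on the log2 scale had a limma adjusted p of 0.301. In all 3 genes the replicates lay closer to each other than to the other group, but none of the differences held after adjustment over all genes.

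hnRNP L depletion lowered 3 of the 36 genes at the call threshold, FANCD2, RAD52 and MLH3, and raised none. Of all genes tested, 5.01% were called lower, 1.75% higher and 6.76% in either direction, so 3 of 36 is near the background. At an unadjusted p under 0.05 from limma, 8 of the 36 were lower (ATM, BLM, FANCD2, FANCI, MLH3, RAD52, TP53BP1 and XRCC4) and 1 was higher (XRCC3), against 20.3% and 8.12% of all genes. Both hnRNP L siRNA libraries lay below both scramble libraries in 15 genes and above both in 5, against 37.8% and 18.8% of all genes. The median log2 fold change was -0.11 over the 36 genes and -0.08 over all genes. The fitted value was below 0 in 27 of the 36 genes and in 61.2% of all genes, and after median-ratio scaling of the libraries in 20 of the 36 and in 49.9% of all genes. The whole 95% interval lay inside a 1.5-fold change for 30 of the 36 genes, and the share of all genes was not computed.

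**Figure D3:**
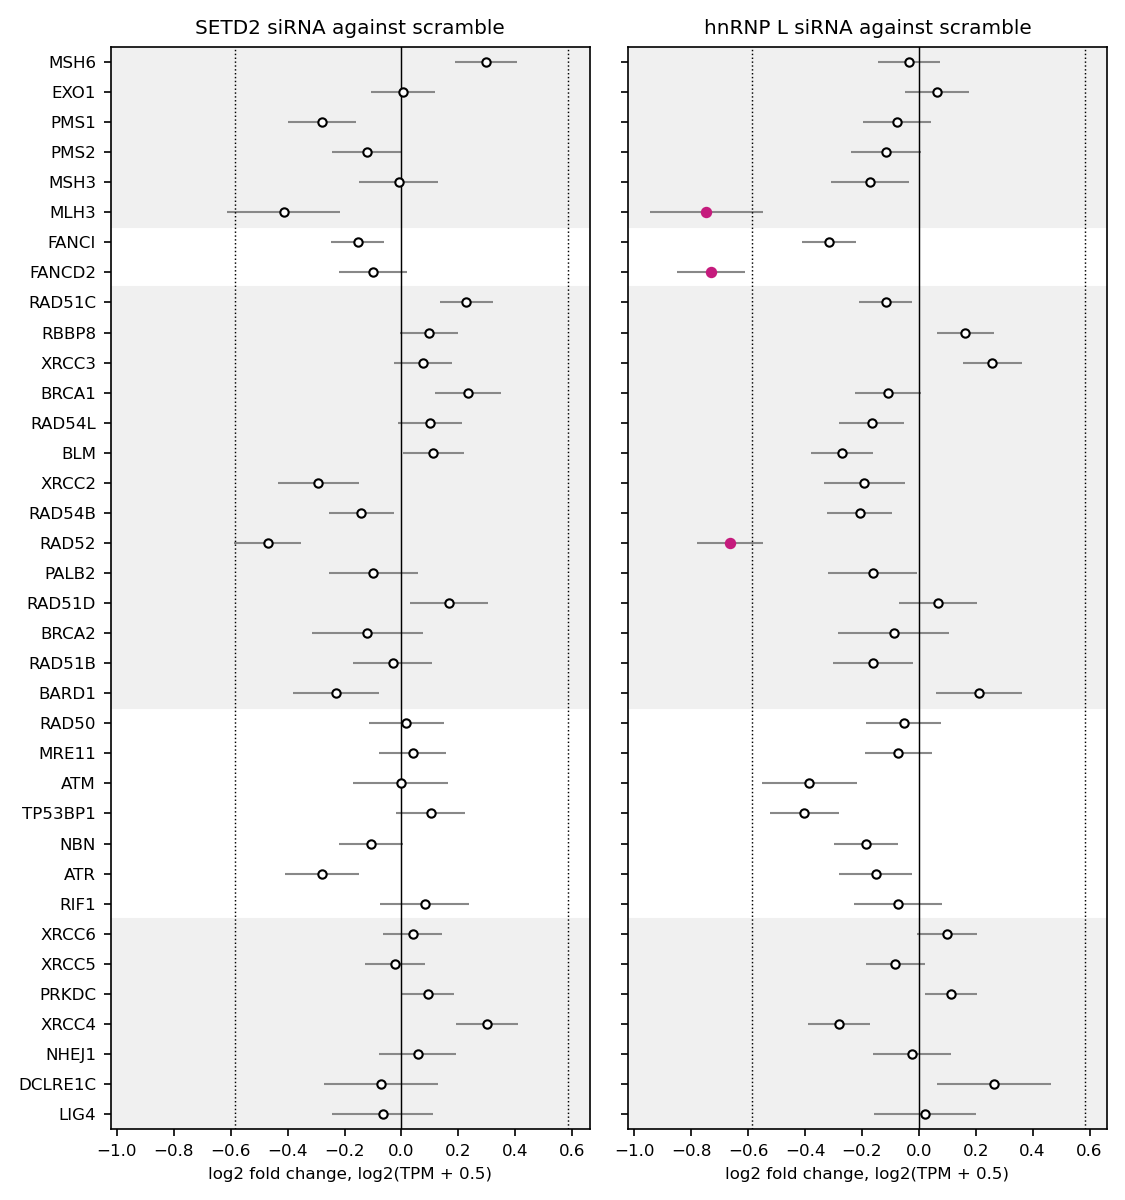
log2 fold change of each repair gene on the log2(TPM + 0.5) scale after SETD2 depletion (left) and hnRNP L depletion (right), by role in the same order as the plot of levels. Points are limma estimates with their standard error, filled points are called genes, and dotted lines mark a 1.5-fold change. No point is filled after SETD2 depletion, and FANCD2, RAD52 and MLH3 are filled on the left side after hnRNP L depletion. Both panels use the same scramble libraries.

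FANCD2 (ENSG00000144554), the ubiquitinated core of the Fanconi anaemia pathway, is a protein-coding gene on the plus strand of chromosome 3 of hg38, at chr3:10026370-10101932. It had 52.3 and 60.3 TPM in scramble libraries, 53.5 and 51.2 TPM with SETD2 siRNA, and 30.9 and 36.6 TPM with hnRNP L siRNA. Both hnRNP L siRNA libraries lay below the other 4, while the scramble and SETD2 siRNA libraries overlapped. The mean fell from 56.3 ± 5.62 TPM (SD, n = 2) in the scramble libraries to 33.8 ± 4.06 TPM (SD, n = 2) after hnRNP L depletion, so that 60.0% was left. The log2 fold change was -0.73 (95% interval -1.0 to -0.46, adjusted p = 0.00988 from limma). It was -0.83 with scramble replicate 1 left out (adjusted p = 0.0407 from limma) and -0.61 with hnRNP L siRNA replicate 1 left out, where the call was lost (adjusted p = 0.108 from limma). The neighbouring and copied sequences FANCD2OS and FANCD2P2 were between 0 and 0.02 TPM.

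FANCI encodes the partner of FANCD2 in the same clamp. It had 112 and 111 TPM in scramble libraries, 95.8 and 105 TPM with SETD2 siRNA, and 89.7 TPM in both hnRNP L siRNA libraries. The 3 groups did not overlap, with scramble highest and hnRNP L lowest. The log2 fold change after hnRNP L depletion was -0.32 (SE 0.0943, limma adjusted p = 0.0654), which did not pass the threshold. The TPM ratio of FANCD2 to FANCI was 0.467 and 0.541 with scramble siRNA, 0.558 and 0.488 with SETD2 siRNA, and 0.345 and 0.408 with hnRNP L siRNA.

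RAD52 (ENSG00000002016) lies on the minus strand of chromosome 12 at chr12:911736-990053. With hnRNP L siRNA it had 8.16 and 9.11 TPM, below the 9.74 and 10.1 TPM with SETD2 siRNA and the 14.3 and 13.6 TPM in scramble libraries. The 3 groups did not overlap. The log2 fold change after hnRNP L depletion was -0.66 (SE 0.117, limma adjusted p = 0.012), and the difference between the depletions was -0.19 (95% interval -0.46 to 0.07, adjusted p = 0.313 from limma). Both depletions were set against the same scramble libraries. The call was lost with scramble replicate 1 left out (adjusted p = 0.0736), with hnRNP L siRNA replicate 1 left out (adjusted p = 0.117), with hnRNP L siRNA replicate 2 left out (adjusted p = 0.064) and after median-ratio scaling, where limma gave a log2 fold change of -0.57. AC004803.1, a gene annotated on the same strand within RAD52, had 2.83 to 4.21 TPM, and reads of the shared bases could have been counted to either gene.

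MLH3 (ENSG00000119684) lies on the minus strand of chromosome 14 at chr14:75013769-75051532. It had 1.36 and 1.45 TPM in scramble libraries, 0.97 and 0.89 TPM with SETD2 siRNA, and 0.60 and 0.67 TPM with hnRNP L siRNA. The groups did not overlap, and the order of the groups was that of RAD52. The log2 fold change after hnRNP L depletion was -0.75 (SE 0.199, limma adjusted p = 0.0456). With SETD2 siRNA the estimate was -0.41 (95% interval -0.87 to 0.04, adjusted p = 0.41 from limma). At this level the value rests on little RNA, and the call was lost with any 1 of the 6 libraries left out. It held in 4 of the 16 alternative settings that gave a value at the 1.5-fold cut-off, with adjusted p between 0.0194 and 0.195.

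**Figure D4:**
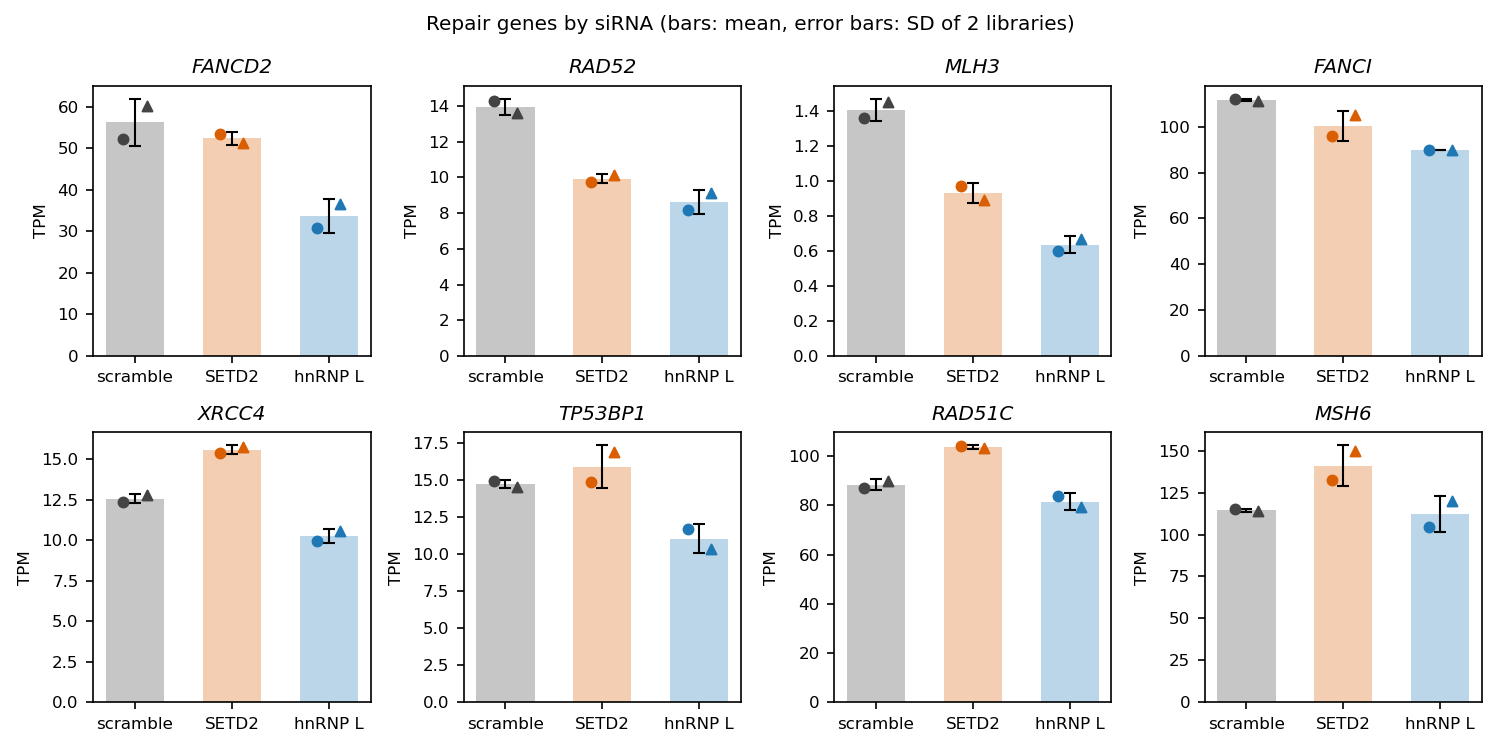
TPM of 8 repair genes by siRNA, each on an axis that starts at 0. Bars are the mean of 2 libraries, error bars the SD, circles the lower-numbered and triangles the higher-numbered library. FANCD2 is lower with hnRNP L siRNA (30.9 and 36.6 TPM) than in the other libraries, RAD52 and MLH3 are lower with both siRNAs than with scramble siRNA, and XRCC4 is highest with SETD2 siRNA and lowest with hnRNP L siRNA.

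The FANCD2 promoter holds letters of the E2F type, the kind of element through which many cell cycle genes are switched on before DNA replication. The promoters of FANCD2, MSH3 and MSH6 are shown because they hold such letters and because FANCD2 and MSH6 carry results given above. A RefSeq promoter (GRCh38.p14, plus strand for all 3) was matched for 31 of the 36 genes. The letters TTTCGCGC, TTTGGCGC or TTTCCCGC were searched on both strands from 250 bases before to 50 bases after the start. They were found in 6 of the 31 (19.4%, EXO1, FANCD2, MSH3, MSH6, XRCC2 and XRCC6) and in 961 of all 35116 promoters (2.74%). The repair genes were counted once each on the main chromosomes. The 35116 were counted as listed and were not limited to expressed genes, so these shares are not from like sets. Each sequence below runs from 150 bases before the RefSeq start to 30 bases after it, with the match in capitals.
FANCD2, chr3:10026287-10026466: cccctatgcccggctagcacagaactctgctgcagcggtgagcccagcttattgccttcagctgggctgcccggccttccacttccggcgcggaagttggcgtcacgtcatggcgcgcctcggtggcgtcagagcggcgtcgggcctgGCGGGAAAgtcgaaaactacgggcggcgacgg
MSH3, chr5:80654502-80654681: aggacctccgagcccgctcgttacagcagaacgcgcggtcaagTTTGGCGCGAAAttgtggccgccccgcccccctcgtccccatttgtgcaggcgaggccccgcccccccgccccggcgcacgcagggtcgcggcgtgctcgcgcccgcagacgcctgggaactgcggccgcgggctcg
MSH6, chr2:47782995-47783174: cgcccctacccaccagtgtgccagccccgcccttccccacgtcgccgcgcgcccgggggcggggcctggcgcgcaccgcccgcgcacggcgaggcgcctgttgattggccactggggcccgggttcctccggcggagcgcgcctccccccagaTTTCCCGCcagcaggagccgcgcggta
In FANCD2 the match reads on the opposite strand and spans the start, in MSH3 a match on each strand overlaps the other, and in MSH6 the match lies just after the start. Of these 3 genes only FANCD2 was called after hnRNP L depletion, and a match of letters does not show binding.

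Runs of at least 6 CA repeats (CACACACACACA) were counted on the sense strand of each gene, because hnRNP L binds such RNA. They were present in 19 of the 36 genes (52.8%) and in 36.8% of the 16207 tested genes with coordinates. The 36 genes are longer, with a median length of 84.6 kb against 25.9 kb. Of the genes called after hnRNP L depletion, 41.0% of those lower and 29.8% of those higher held a run, at median lengths of 31.7 kb and 12 kb. FANCD2 and MLH3 held none and RAD52 held 2, both in introns. The longer of these, on the minus strand at chr12:939053-939084, is shown as the longest run found in a called repair gene, with the 16 repeats in capitals and 30 bases on each side.
RAD52, chr12:939023-939114: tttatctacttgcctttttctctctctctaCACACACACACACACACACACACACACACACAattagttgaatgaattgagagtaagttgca
XRCC4 held 7 runs, FANCI 4, RBBP8 4, BRCA1 5 and RAD51B 29, and none of these genes was called after hnRNP L depletion. Both hnRNP L siRNA libraries lay below both scramble libraries in XRCC4 and FANCI and above both in RBBP8, against 37.8% and 18.8% of all genes. The groups overlapped in BRCA1 and RAD51B. The Spearman correlation of run density with the log2 fold change was -0.275 over the 36 genes and -0.066 over all tested genes. For gene length it was -0.131 and -0.141. A part of the runs in these changes was not tested.

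Among the genes of break sensing and repair choice, TP53BP1 and ATM had the lowest estimates after hnRNP L depletion, and neither passed the threshold. TP53BP1, whose product shields broken ends from being cut back, had 15.0 and 14.6 TPM in scramble libraries, 14.9 and 17.0 TPM with SETD2 siRNA, and 11.8 and 10.4 TPM with hnRNP L siRNA. Both hnRNP L siRNA libraries lay below the other 4. Its log2 fold change was -0.40 (SE 0.121, limma adjusted p = 0.0657). ATM, the kinase that signals a break, had 22.2 and 16 TPM in scramble libraries and 12.9 and 15.9 TPM with hnRNP L siRNA, so that its groups met almost at the same value, and the log2 fold change of -0.39 had an adjusted p of 0.167. For the complex that holds the ends, RAD50 ranged from 26.0 to 32.2 TPM, MRE11 from 21.0 to 25.8 TPM and NBN from 12.5 to 14.7 TPM. None of the 3 reached an unadjusted p under 0.05 in any comparison. The kinase gene ATR and RIF1, which acts with TP53BP1, were not called in any comparison either.

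Of the 14 recombination genes, RAD52 was the only one called. XRCC3, a recombinase paralog that pairs with RAD51C, had 38.4 and 42.3 TPM in scramble libraries, 42.0 and 43.0 TPM with SETD2 siRNA, and 46.5 and 50.2 TPM with hnRNP L siRNA. After hnRNP L depletion its log2 change was 0.26 (limma adjusted p = 0.136). The TPM ratio of XRCC3 to RAD51C was 0.442 and 0.470 with scramble siRNA, 0.403 and 0.417 with SETD2 siRNA, and 0.555 and 0.634 with hnRNP L siRNA, with no overlap between the 3 groups. BRCA1 had 34.8 and 34.4 TPM in scramble libraries, 37.9 and 43.9 TPM with SETD2 siRNA, and 29.8 and 34.4 TPM with hnRNP L siRNA. BRCA2, which loads the recombinase, had 9.33 and 5.84 TPM in scramble libraries, a gap wider than any difference between its group means. The helicase gene BLM had 24.1 and 24.8 TPM in scramble libraries, 26.3 and 26.6 TPM with SETD2 siRNA, and 21.6 and 18.9 TPM with hnRNP L siRNA. On the log2 scale, hnRNP L depletion moved it by -0.27 (adjusted p = 0.143 from limma).

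None of the 7 end joining genes was called after either depletion, and their median log2 fold change was 0.04 with SETD2 siRNA and 0.02 with hnRNP L siRNA. XRCC4 had 9.97 and 10.6 TPM with hnRNP L siRNA, below the 12.4 and 12.8 TPM in scramble libraries, and its log2 fold change of -0.28 had an adjusted p of 0.131. DCLRE1C, the nuclease that opens hairpin ends, had 5.31 TPM in one hnRNP L siRNA library and 8.66 TPM in the other. For PMS2, a MutL protein, 11 copies listed under names of their own summed to 30.1 to 37.5 TPM, above its own 10.2 to 12.4 TPM, and reads of the shared sequence could have been split among them. The value of PMS2 is uncertain for that reason.

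Set directly against each other, the depletions differed in FANCD2, which was called lower with hnRNP L than with SETD2 siRNA (log2 difference -0.63, 95% interval -0.90 to -0.36, adjusted p = 0.0155 from limma). Of all genes tested, 4.69% were called lower and 6.84% in either direction. At an adjusted p under 0.05 with no fold change required, 4 of the 36 were lower (FANCD2, XRCC4, TP53BP1 and RAD51C), where 7.99% of all genes were lower. XRCC4 differed by -0.58 (SE 0.109, limma adjusted p = 0.0147), just under a 1.5-fold change, TP53BP1 by -0.51 (adjusted p = 0.0333) and RAD51C by -0.35 (adjusted p = 0.0474). In each of these 4 genes both hnRNP L siRNA libraries lay below both SETD2 siRNA libraries, as in 6712 of all 16300 genes tested. The 4 genes were picked by the same comparison, so this adds no separate evidence. MSH6 differed by -0.33 (adjusted p = 0.0873 from limma) and BARD1 by 0.44 (adjusted p = 0.0955), neither past the threshold. The median difference was -0.08 over the 36 genes and -0.10 over all genes. The FANCD2 call was lost when either SETD2 or either hnRNP L siRNA library was left out, with adjusted p between 0.0585 and 0.145, and after median-ratio scaling its difference was -0.52.

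The wider repair pathways were described from lists of 99 further genes, of which 98 were found and 95 tested. None was called after SETD2 depletion by limma, where 9 were higher and 4 lower at an unadjusted p under 0.05, against 6.76% and 6.36% of all genes. After hnRNP L depletion 1 was called higher and 5 lower, against 1.75% and 5.01% of all genes, and the median log2 fold change was -0.01. FANCA, of the core complex that ubiquitinates FANCD2 and FANCI, had 36.6 and 39.99 TPM in scramble libraries, 38.4 and 36.5 TPM with SETD2 siRNA, and 60.6 and 62.5 TPM with hnRNP L siRNA. Its log2 fold change after hnRNP L depletion was 0.68 (SE 0.099, limma adjusted p = 0.00638). FANCA and FANCD2, 2 genes of the Fanconi pathway, were thus called in opposite directions. FAN1, the nuclease recruited by ubiquitinated FANCD2, had 6.39 and 6.57 TPM in scramble libraries, 6.63 and 6.86 TPM with SETD2 siRNA, and 3.29 and 3.84 TPM with hnRNP L siRNA. Its log2 fold change after hnRNP L depletion was -0.78 (SE 0.134, limma adjusted p = 0.0112).

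The 4 others called lower were GEN1, LIG1, REV1 and SETMAR. GEN1, a resolvase of recombination junctions, had 4.97 and 3.97 TPM in scramble libraries and 2.08 and 2.61 TPM with hnRNP L siRNA. LIG1, the ligase that seals the strand after mismatch repair, had 31.8 and 35.6 TPM in scramble libraries and 21.4 and 19.2 TPM with hnRNP L siRNA. REV1, a translesion polymerase, had 13.2 and 11.4 TPM in scramble libraries, 8.40 and 9.96 TPM with SETD2 siRNA and 7.38 and 7.34 TPM with hnRNP L siRNA. SETMAR, a methyltransferase and transposase fusion linked to end joining, had 5.56 and 6.27 TPM in scramble libraries and 3.41 and 3.25 TPM with hnRNP L siRNA. The log2 fold changes of the 4 genes were between -0.80 for GEN1 and -0.70 for REV1. Between the depletions, 1 of the 95 genes tested was called higher with hnRNP L siRNA (FANCA). There were 6 called lower (FAAP20, FAN1, GEN1, H2AFX, LIG1 and SETMAR). Over all 16300 genes tested, 350 were called higher and 765 lower (4.69%), so these counts are near the background.

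Many repair genes are expressed mainly in S and G2 phase, so lists of cell cycle genes were set beside them. The median log2 fold change of 20 S phase genes was 0.23 after SETD2 depletion, with 0 called by limma and 10 higher at an unadjusted p under 0.05, against 6.76% of all genes. It was 0.17 after hnRNP L depletion, with 1 of the 20 called higher (CDT1), against 1.75% of all genes. At an unadjusted p under 0.05 from limma, 6 of the 20 were higher, against 8.12% of all genes. The medians of 20 genes of G2 and mitosis were -0.02 and -0.13. By limma 0 of these were called in either comparison, with 2 lower after SETD2 depletion at an unadjusted p under 0.05, against 6.36% of all genes, and 3 lower and 1 higher after hnRNP L depletion, against 20.3% and 8.12%. The S phase medians lay above the median of all genes in both comparisons, which share the scramble libraries. The part of the cell cycle in the repair gene values was not tested.

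**Figure D5:**
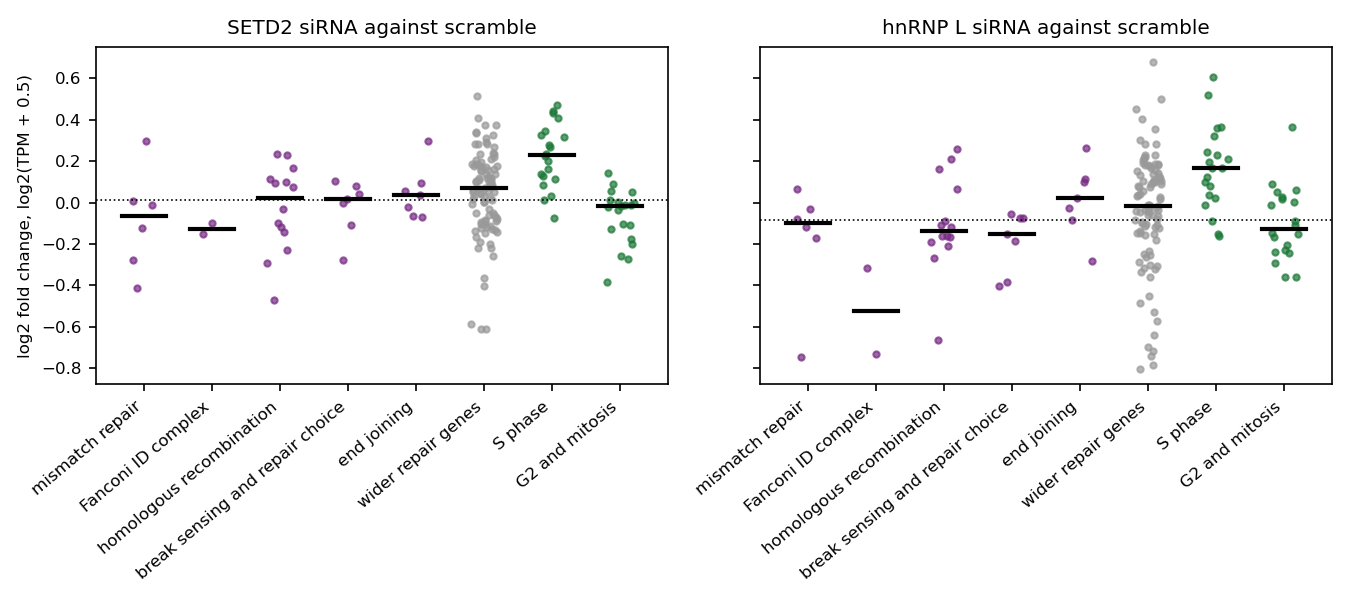
log2 fold change on the log2(TPM + 0.5) scale after SETD2 depletion (left) and hnRNP L depletion (right) for the 5 groups of repair genes (purple), the wider repair lists (grey) and the cell cycle lists (green). Each point is a gene, black bars are list medians and the dotted line is the median of all genes tested. The S phase median lies at 0.23 and 0.17, above the dotted line in both panels, and the Fanconi ID complex lies lowest after hnRNP L depletion at -0.52, the median of 2 genes.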

How the data were processed

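RNA-seq of 293T cells was analysed in 6 libraries, 2 per siRNA. Libraries were made after ribosomal RNA depletion and poly(A) selection, per the labels. The 10 ChIP-seq samples of the series were not analysed here. Paired reads had been aligned with STAR 2.6.1c to hg38 and Ensembl release 96 gene models, and the authors computed the deposited TPM with RSEM 1.3.0. Whether counting used strand is not given in the sources used here.

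TPM were transformed to log2(TPM + 0.5), and the 16300 genes whose mean reached 0.5 TPM were fitted in R 4.3.3 with limma 3.58.1, using 1 coefficient for each siRNA, a variance trend and Benjamini-Hochberg adjustment. Calls required an adjusted p under 0.05 together with more than a 1.5-fold change. The fit was tested on simulated data, where it recovered 50 of 67 changes of 2-fold and 66 of 66 of 4-fold, with 3 false calls. No change under 2-fold was simulated, so recovery near the 1.5-fold cut-off is not known. Intervals of 95% use the fit's 8.743 degrees of freedom. No search for outlying libraries is possible in groups of 2. Coordinates are from GENCODE release 44 on hg38.

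The repair genes and all lists were chosen with earlier results of these data known. Values per library are given for repair genes past an adjusted p of 0.05 in any comparison, for MSH6, and in each group for the highest gene and the largest change. Further values were chosen after they were seen. Of the wider lists, called genes are named. The alternatives were other pseudocounts, filters, scalings, gene classes and cut-offs, dropping the variance trend, fitting only the groups compared, leaving out each library in turn, and blocking on the replicate number. Python 3.11.15 and pandas 2.3.3 were used for the tables.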

Additional observations from a re-analysis of the deposited data

Results flagged for a closer look

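In 4 repair genes the response to hnRNP L depletion differed from the response to SETD2 depletion by a direct test between the depletions (limma, adjusted p under 0.05). Values are hnRNP L siRNA minus SETD2 siRNA on the log2 scale. FANCD2 differed by -0.63, XRCC4 by -0.58, TP53BP1 by -0.505 and RAD51C by -0.345. In each gene both hnRNP L siRNA libraries lay below both SETD2 siRNA libraries, as in 6712 of all 16300 genes tested. XRCC4, TP53BP1 and RAD51C had positive estimates against scramble siRNA after SETD2 depletion and negative ones after hnRNP L depletion. None of these estimates passed the threshold. The estimates of FANCD2 were negative after both depletions. Of all genes tested, 10.8% differed at this adjusted p in either direction, so 4 of 36 is near the background. Over the alternative settings the limma adjusted p was under 0.05 in 11 of 16 for FANCD2 and for XRCC4. It was so in 7 of 16 for RAD51C and in 4 of 16 for TP53BP1. With any SETD2 or hnRNP L siRNA library left out, none of the 4 kept an adjusted p under 0.05.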

How the results depend on the processing

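The count of called repair genes after SETD2 depletion was 0 under every alternative run. Their median log2 fold change there was -0.101 in TPM without the mitochondrially encoded genes, where the median of all genes was -0.074 and 27 of the 36 lay below 0 in place of 19, with 63.6% of all genes in place of 47.4%. After hnRNP L depletion the count of 3 became 0 at a fold change above 2, 0 with no filter on TPM, and 1 (FANCD2) after median-ratio scaling and after quantile normalization. With each library left out it ranged from 0 to 2, with 0 without hnRNP L siRNA replicate 1 and 1 without hnRNP L siRNA replicate 2 or scramble replicate 1. The median over the repair genes moved to -0.019 after median-ratio scaling and -0.028 after quantile normalization. Between the depletions the count of 1 became 0 at a fold change above 2, with no filter, in TPM without mitochondrial genes and after either scaling, 2 (FANCD2 and XRCC4) with a pseudocount of 0.1 and 4 with no fold change required. It ranged from 0 to 1 with each library left out, and was 0 without any 1 SETD2 or hnRNP L siRNA library. The median became 0.026 after median-ratio scaling and 0.032 after quantile normalization. At the 1.5-fold cut-off, FANCD2 was called after hnRNP L depletion in 15 of 17 alternative settings (the crossed numbers aside), RAD52 in 11 of 17 and MLH3 in 4 of 16. No called repair gene changed direction.

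Over all genes, hnRNP L depletion gave 286 higher and 816 lower calls, 420 and 528 after median-ratio scaling, and 424 and 482 after quantile normalization. With protein-coding and lncRNA genes only, SETD2 depletion gave 60 calls in place of 17. The replicate block, which used the numbers 1 and 2 common to hnRNP L and scramble siRNA, left 2 repair genes called, FANCD2 and RAD52, and MLH3 was lost (adjusted p = 0.0918 from limma), while over all genes the calls fell from 1102 to 715. Over genes, deviations of same-numbered libraries correlated at -0.1256. With 2 libraries per group this value cannot settle whether same-numbered libraries were handled together. When the numbers were crossed, which was chosen after seeing the data, 3 repair genes were called. TPM keep no counts, so no limit set by depth was computed here. The wider and cell cycle lists were not recomputed under the alternatives.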
